A study of Mus musculus with 24 samples.

Results

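S776A double mice were set against SCA1 mice, gene by gene, in the cerebellum at 6 weeks of age. Spinocerebellar ataxia type 1 (SCA1) is caused by an expanded polyglutamine tract in ATXN1, and both groups carried 1 Atxn1 allele with an expanded CAG repeat, which codes for that tract, and 1 unexpanded allele (2Q). The groups were chosen by their genotype labels, and they made up 8 of the 24 mice of the series, 4 in each. In S776A double mice both alleles, expanded and unexpanded, carried the substitution of serine S776 by alanine (S776A), and in SCA1 mice neither did. The comparison asks whether removing the phosphorylated serine from both alleles changes the transcriptome of mice that keep the expanded allele.

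The other mice serve here as references. WT mice (2Q/2Q, n = 8) had neither an expansion nor the substitution, SCA1 S776A mice (n = 4) had the substitution on the expanded allele alone, and WT S776A homozygous mice (2Q[S776A]/2Q[S776A], n = 4) had it on both alleles without an expansion. The expanded allele is a knockin at the endogenous locus, so it is expressed wherever Atxn1 is, and the edits were made by CRISPR/Cas9 with further synonymous changes beside the substitution. The labels do not say which founder line, litter or sex a mouse came from. Whole cerebellar tissue was used, 1 library per mouse, so fewer cells of a type and less RNA per cell cannot be told apart.

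ATXN1 is a chromatin-associated protein that binds the repressor Capicua (CIC), and in SCA1 the Purkinje cells, the sole output neurons of the cerebellar cortex, lose function before they die. S776 lies near the C-terminus, where its phosphorylation lets 14-3-3 proteins bind and keeps the protein stable. Less stable ATXN1 need not mean less Atxn1 mRNA, which is what was counted here. The codon is shown because it is the designed amino acid difference between the groups. In the longest annotated mouse Atxn1 coding sequence (GENCODE, GRCm38) it is codon 751 of 791 and lies in exon 8 of 8, on the minus strand at chr13:45557178-45557180. Residue numbers differ because the name S776 follows the human protein. It was found by searching the translated sequence for the 14-3-3 site pattern of an arginine, any 2 residues, a serine, any residue and a proline. Of 2 matches, the one in exon 7 was not used. The 27 bases around it (chr13:45557166-45557192) are given 5′ to 3′ on the coding strand, with the serine codon in capitals.
Atxn1 S776 site: aagaggaggtggTCGgcgccggagacc

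The libraries held 68720812 to 85575119 fragments on genes in these 8 mice, and 22502 genes were tested in 1 fit of all 24 mice. The difference in depth between the groups did not pass an exact two-sided permutation test (p = 0.0857, adjusted p = 0.4 over 7 measures, smallest possible p 0.0286 with 4 against 4). All 8 libraries fell in the same inferred sequencing batch. WT means in CPM are those of the 4 WT mice in that batch, unless the other batch is named. Levels are given as CPM, the counts of a gene scaled to the size of its library and not to gene length, so they are compared between mice and not between genes. S776A double mouse 1 stood apart in sex-linked genes. By RNA it was female, and the others of these 8 mice were male, so sex was not balanced between the groups. Its Xist level was 830 CPM against 0.5 to 0.658 CPM in the other S776A double mice and 0.254 to 0.925 CPM in SCA1 mice. The Y-linked gene Uty lay at 0.0469 CPM in it, against 24.5 to 29.4 CPM and 24.1 to 27.5 CPM. Choroid plexus RNA also varied widely, and its values are given beside the results below.

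No gene passed the study's thresholds, an adjusted p under 0.01 (edgeR, quasi-likelihood, adjusted by Benjamini-Hochberg over all genes) and an absolute log2 difference over 0.5, so 0 of 22502 genes (0%) were called higher and 0 lower in S776A double than in SCA1 mice. At an unadjusted p under 0.05 there were 819 genes (3.64%), of which 377 (1.68%) were higher and 442 (1.96%) lower. At an adjusted p under 0.05 there was 1 gene, and under 0.1 there were 2. DESeq2 called 1 gene higher, both with the batch as a covariate and after ComBat-seq. In 607 genes (2.7%) the mice of the groups did not overlap, with all S776A double mice above in 354 (1.57%) and below in 253 (1.12%). The precision was enough to bound most differences. Of the 14966 genes with a mean of at least 1 CPM in these mice, 13270 (88.7%) had a 95% interval lying between log2 differences of -0.5 and 0.5, and 14756 (98.6%) between -1 and 1.

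Atxn1 mRNA, the edited transcript, differed between the groups by less than the spread among mice. It lay at 69.5, 65.1, 63.3 and 50.3 CPM in the S776A double mice and at 55.2, 58.3, 63.9 and 57.9 CPM in the SCA1 mice. The ranges overlapped, with one S776A double mouse lowest of all and another highest. The means were 62.1 ± 8.27 and 58.8 ± 3.65 CPM (SD, n = 4), and the difference did not pass an exact two-sided permutation test (p = 0.486). The fitted log2 difference was 0.08 with a 95% interval of -0.09 to 0.25, and without S776A double mice 1 and 2 it was -0.05. WT mice of the same batch averaged 50.8 CPM. The counts do not separate the transcripts of the alleles, and Atxn1 overlaps genes on the other strand, which these libraries, counted without strand, cannot tell apart. Among 88 tested genes within 5 Mb of Atxn1, the median log2 difference was 0.02, against 0.001 over all tested genes. At an unadjusted p under 0.05, 3 of them were higher and 0 lower, where 1.68% of all tested genes were higher and 1.96% lower.

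Gm15083, a long noncoding RNA on chromosome 6 (114004789 to 114052265) annotated as antisense, had the lowest p of all genes. Its level was 2.17, 2.2, 2.84 and 2.28 CPM in S776A double mice and 0.961, 1, 1.25 and 1.16 CPM in SCA1 mice. Every S776A double mouse lay well above every SCA1 mouse, and WT mice of the same batch averaged 3.15 CPM. The log2 difference was 1.11 (SE 0.17, 95% interval 0.77 to 1.46), with an adjusted p of 0.0105 in edgeR that just missed the threshold. It passed in DESeq2 with a batch covariate (adjusted p = 2.27e-06), and over all settings the adjusted p lay between 3.57e-07 and 0.123. The largest, 0.123, came from the edgeR fit of only the 8 SCA1 and S776A double mice. The log2 difference itself stayed between 1.02 and 1.22. Without SCA1 mouse 1 the adjusted p was 0.113, without SCA1 mouse 2 it was 0.102 and without S776A double mouse 3 it was 0.0915. Gm15083 lies opposite Atp2b2, the plasma membrane calcium pump of Purkinje cells, and fragments of the strands cannot be told apart. Atp2b2 itself averaged 770.7 ± 102 CPM in S776A double and 691 ± 49.5 CPM in SCA1 mice, with overlapping ranges and a log2 difference of 0.16 (SE 0.14). Gm15083 was not higher in S776A double mice alone. It averaged 2.64 ± 0.483 CPM in SCA1 S776A mice, which passed the thresholds against the same SCA1 mice (log2 1.27, adjusted p = 0.00117 in edgeR). Between S776A double and SCA1 S776A mice its log2 difference was -0.15 (SE 0.16).

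The other gene under an adjusted p of 0.1 was Cep76, which encodes a centrosomal protein. It lay at 177.8, 168.5, 169.1 and 181.8 CPM in S776A double mice and at 127.7, 143.4, 142.8 and 139.7 CPM in SCA1 mice. No S776A double mouse overlapped the SCA1 mice, and they lay near the WT mean of 178.7 CPM. The log2 difference was 0.33 (SE 0.06, adjusted p = 0.0625 in edgeR), smaller than the 0.5 that a call required. In DESeq2 with a batch covariate its adjusted p was 9.66e-05, at the same log2 difference of 0.33. SCA1 S776A mice averaged 164 ± 10.2 CPM for Cep76, a log2 difference of 0.245 from the same SCA1 mice (adjusted p = 0.308 in edgeR).

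**Figure D1:**
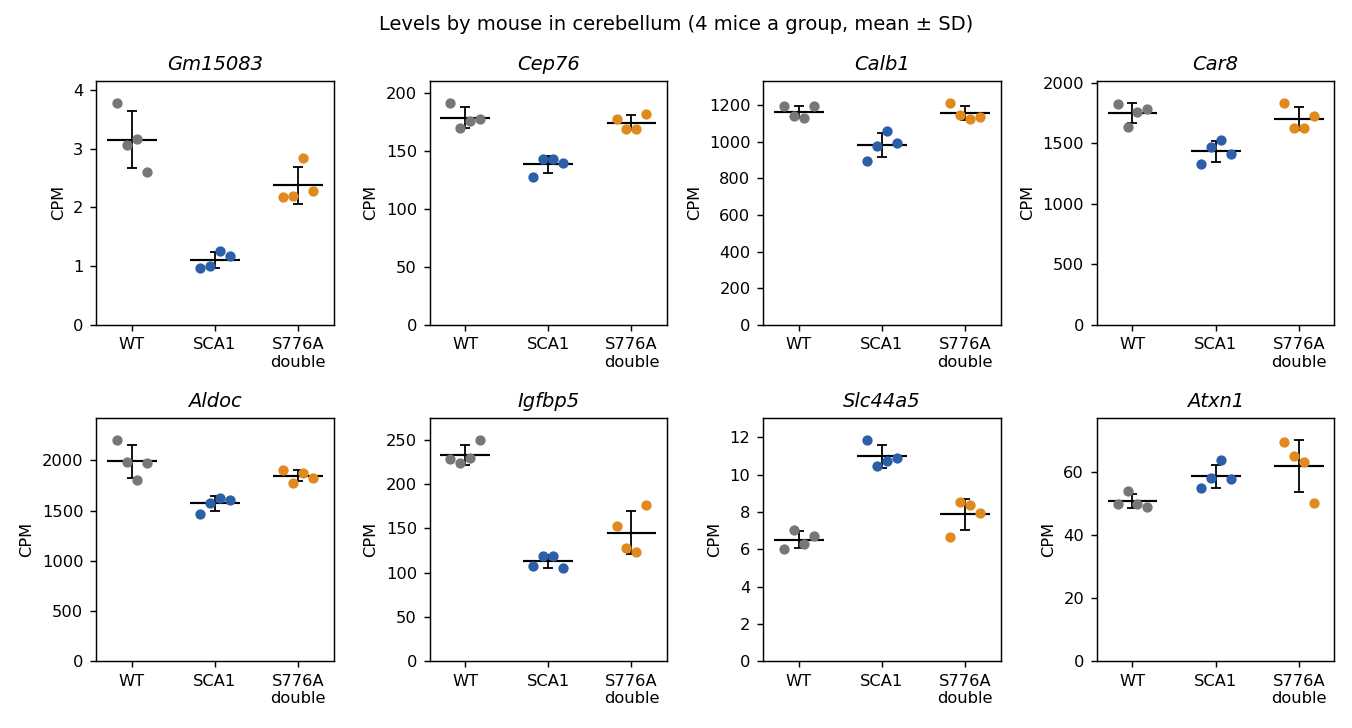
Level of 8 genes in CPM (vertical axes, from 0) in each WT mouse of the same batch, SCA1 mouse and S776A double mouse, with 1 point a mouse and bars for the mean ± SD of 4 mice. The S776A double mice lay above the SCA1 mice for Gm15083, Cep76, Calb1, Car8, Aldoc and Igfbp5, below them for Slc44a5, and overlapped them for Atxn1.

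The genes next in line by p were higher or lower by small steps, and none had an adjusted p under 0.8. Of the 12 genes with the lowest p on the higher side and a mean of at least 1 CPM, 11 did not overlap between the groups, and of the 12 on the lower side 8 did not, counts that the choice by p favours. On the higher side, Fam107b, whose product belongs to a small family of actin-associated proteins, averaged 147 ± 4.61 CPM in S776A double and 117.5 ± 5.42 CPM in SCA1 mice (log2 0.32, SE 0.07). Pde5a, the cGMP-specific phosphodiesterase, averaged 100.4 ± 13.2 and 78.9 ± 5.19 CPM (log2 0.35, SE 0.09), and Casq2, a calsequestrin that buffers calcium in the endoplasmic reticulum, 44.3 ± 3.31 and 35.2 ± 2.69 CPM (log2 0.33, SE 0.08). Mlph, a melanosome transport adaptor, averaged 7.96 ± 0.293 and 4.57 ± 1.52 CPM (log2 0.80, SE 0.21). The noncoding RNA Gm39465 lay at 4.4, 3.83, 4.72 and 8.29 CPM in S776A double and 2.15, 2.25, 3.45 and 2.96 CPM in SCA1 mice. Its groups did not overlap, yet both lay below the WT mean of 10.8 CPM. Cep126, Nlrp10, Gm13944, Irx3 and Plch1 complete the higher side, with log2 differences of 0.28 to 0.44.

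On the lower side, Slc44a5, a choline transporter-like protein, lay at 6.69, 8.54, 8.36 and 7.93 CPM in S776A double mice and at 11.9, 10.5, 10.8 and 10.9 CPM in SCA1 mice. All S776A double mice were lower, toward the WT mean of 6.53 CPM. Its log2 difference was -0.48 (SE 0.13, unadjusted p = 7.07e-04, adjusted p = 0.884 in edgeR). Prr18, a gene expressed in oligodendrocytes, averaged 60.5 ± 6.49 CPM in S776A double and 75.4 ± 4.38 CPM in SCA1 mice (log2 -0.32, SE 0.08). Agpat4, an acyltransferase of phospholipid synthesis, averaged 40.7 ± 1.16 and 47.3 ± 1.72 CPM (log2 -0.22, SE 0.06), and Cdc14b, a phosphatase, 22.1 ± 1.58 and 27.7 ± 1.86 CPM (log2 -0.33, SE 0.09). Atp10b, Ier5l, Ankrd44, Mettl27, Gm47469, Rhog, Timp2 and Plpp2 had log2 differences of -0.88 to -0.22. For Ier5l the WT mean was 3.59 CPM, close to the SCA1 mean of 3.68 CPM, while S776A double mice averaged 2.57 ± 0.226 CPM.

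Purkinje cell markers lay almost all on the higher side. All 20 were tested, 0 passed the thresholds, 19 had a positive log2 difference and the exception was the transcription factor Foxp2 (log2 -0.03, SE 0.11). The median was 0.18, against 0.001 over all tested genes, of which 50.4% were positive. At an unadjusted p under 0.05, 9 of the 20 were higher (1.68% over all tested genes) and 0 lower, and 10 did not overlap between the groups, all with the S776A double mice above (1.57% over all tested genes). Genes of 1 cell type vary together from mouse to mouse, so these counts are not 20 separate observations. They lean on single mice: the 9 became 3 without SCA1 mouse 1, 4 without S776A double mouse 4 and 5 with choroid plexus RNA as a covariate, and 12 with Xist as a covariate, while the median stayed between 0.18 and 0.24.

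Calb1, calbindin, the calcium buffer used to stain Purkinje cells, lay at 1212, 1146, 1128 and 1137 CPM in S776A double mice and at 897.6, 977.5, 1059 and 993 CPM in SCA1 mice. The groups did not overlap, and the S776A double mice lay around the WT mean of 1164 CPM. The log2 difference was 0.24 (SE 0.08, 95% interval 0.08 to 0.39), with an unadjusted p of 0.0052 and an adjusted p of 1 in edgeR. Car8, an inhibitor of the IP3 receptor, lay at 1833, 1630, 1627 and 1730 CPM against 1327, 1468, 1527 and 1415 CPM, again without overlap (log2 0.25, SE 0.07). Aldoc, the aldolase that marks zebrin-positive Purkinje cells, lay at 1904, 1778, 1872 and 1828 CPM against 1469, 1578, 1628 and 1609 CPM (log2 0.23, SE 0.07). Here too every S776A double mouse was above every SCA1 mouse, with a WT mean of 1990 CPM above both.

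The other markers whose groups did not overlap were chosen for naming after their values were seen. Homer3, a scaffold of the mGluR1 synapse, averaged 181.6 ± 3.82 CPM in S776A double and 154.5 ± 3.34 CPM in SCA1 mice, and Plcb3, a phospholipase C, 65.8 ± 1.91 and 56.2 ± 1.33 CPM. Inpp5a, an inositol phosphatase, averaged 453.5 ± 23.9 and 400.4 ± 17.3 CPM, and Ppp1r17, a phosphatase inhibitor enriched in Purkinje cells, 240.4 ± 5.28 and 211.6 ± 15.5 CPM. Arhgef33, Icmt and Lhx5 complete the 10, with log2 differences of 0.17 to 0.27. For Homer3 (WT mean 211.5 CPM) and Plcb3 (WT mean 92 CPM) the S776A double level still lay below WT. By contrast Itpr1, the IP3 receptor, spread from 2287 to 3972 CPM among S776A double mice and from 2235 to 2807 CPM among SCA1 mice, so that its log2 difference of 0.17 (SE 0.16) was within the spread and was -0.01 without S776A double mouse 1. Slc1a6, a glutamate transporter, differed by a log2 of 0.05 (SE 0.15).

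Averaged over the 20 markers, the log2 difference from the WT mice of the same batch was -0.07, -0.23, -0.20 and -0.16 in the S776A double mice and -0.41, -0.31, -0.32 and -0.37 in the SCA1 mice. The SCA1 mice were all lower, and all 8 mice were below the WT mean. The 4 SCA1 S776A mice lay between -0.27 and -0.02, overlapping the S776A double mice. Set against SCA1 S776A mice, the S776A double mice had a median log2 difference of -0.02 over the markers, and between SCA1 S776A and SCA1 mice it was 0.19, a comparison that uses the same SCA1 mice.

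**Figure D2:**
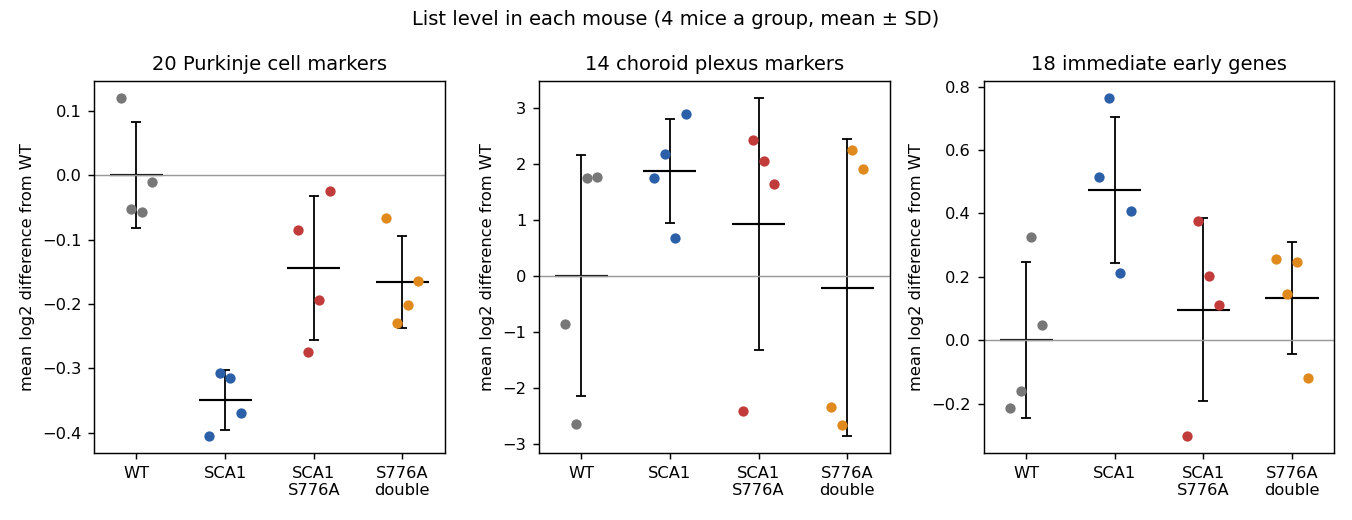
Mean log2 difference from the WT mice of the same batch (vertical axes) over 3 gene lists, with 1 point a mouse and bars for the mean ± SD of 4 mice. Purkinje cell markers lay between -0.41 and -0.31 in SCA1 mice and between -0.23 and -0.07 in S776A double mice. Choroid plexus markers varied widely, also among WT mice, and split the S776A double mice into a low and a high pair.

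Genes of the mGluR1 pathway at the parallel fiber synapse, through which granule cells drive Purkinje cells, had a median log2 difference of 0.16. This list shares members with the Purkinje cell markers, Homer3 and Rgs8 among them. Of 20 tested, 19 were positive (50.4% over all tested genes), 5 were higher (1.68% over all) and 0 lower at an unadjusted p under 0.05, and 4 did not overlap, with the S776A double mice above (1.57% over all). Gria3, an AMPA receptor subunit, averaged 125.4 ± 15.8 and 110.3 ± 5.2 CPM with overlap, and Itpka, an inositol trisphosphate kinase, 69.7 ± 3.92 and 60.1 ± 3.55 CPM without it. Among 20 ion channel genes of Purkinje cell firing the median was 0.08, 19 were positive and 3 were higher at an unadjusted p under 0.05, beside the same shares over all genes. Among them were the potassium channel subunit Kcnab1 (152.1 ± 2.92 against 136 ± 7.67 CPM) and the calcium-activated potassium channel Kcnma1 (275.5 ± 31.2 against 241.8 ± 10.1 CPM).

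Further receptor genes were read as lists. Of 25 glutamate and GABA receptor subunits, 23 were positive (50.4% over all tested genes), but the median was 0.07. At an unadjusted p under 0.05, 2 were higher (1.68% over all) and 0 lower, Gria3, a member of the mGluR1 list too, among the 2. Of the 7 nicotinic acetylcholine receptor subunits tested, 4 were positive, with a median of 0.12. At an unadjusted p under 0.05, 2 were higher (1.68% over all) and 0 lower, and these 2 had low levels. Chrna3 lay at 0.904, 0.865, 0.934 and 0.974 CPM in S776A double mice and at 0.738, 0.449, 0.584 and 0.374 CPM in SCA1 mice. All S776A double mice were above the SCA1 mice and below the WT mean of 1.95 CPM. The log2 difference was 0.78 (SE 0.18, unadjusted p = 2.31e-04, adjusted p = 0.815 in edgeR), and against WT mice Chrna3 was among the genes called lower in the S776A double mice (0.0222% of all genes, log2 -1.09, adjusted p = 0.00388). Chrnb4, its neighbor and partner subunit, averaged 0.739 ± 0.193 and 0.479 ± 0.0968 CPM, with overlap. Igfbp5, a secreted insulin-like growth factor binding protein, lay at 152.2, 127.9, 123.8 and 176.1 CPM against 107.1, 118.8, 119.3 and 105.4 CPM. Its groups did not overlap either, and both lay below the WT mean of 232.8 CPM (log2 0.37, SE 0.13). Of the 12 insulin-like growth factor genes, 6 were positive and 6 negative. At an unadjusted p under 0.05, 1 was higher and 1 lower (1.68% and 1.96% over all tested genes). The lower one, Igfbp7, averaged 14.8 ± 1.06 and 19.5 ± 5.45 CPM with overlap (log2 -0.40, SE 0.16).

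The genes of the ATXN1 pathway itself differed little. Among 12 tested genes of ATXN1, its paralog and complex partners the median was 0.003, with 6 positive and 6 negative and 0 at an unadjusted p under 0.05. Atxn1l, the paralog that competes with ATXN1 for CIC, averaged 54.3 ± 5.13 and 56.5 ± 4.27 CPM (log2 -0.06, SE 0.09), and Cic 212.6 ± 30.2 and 206.9 ± 28.4 CPM (log2 0.04, SE 0.23). Of 14 genes listed as Capicua targets, 7 were positive and 7 negative, and the cell cycle gene Ccnd1 alone had an unadjusted p under 0.05 (22.1 ± 2.22 against 25.1 ± 1.09 CPM, log2 -0.19, SE 0.08). Of 7 genes encoding 14-3-3 proteins, Ywhah (14-3-3 eta) lay at 1070, 1066, 1098 and 1032 CPM in S776A double and 899.9, 987, 982.4 and 961.7 CPM in SCA1 mice. The groups did not overlap, with a WT mean of 1143 CPM (log2 0.16, SE 0.06, unadjusted p = 0.0149), while the median of the list was 0.02. The 11 genes listed for the kinases that phosphorylate S776 had a median of 0.01, and 0 had an unadjusted p under 0.05.

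Other cell types differed less evenly or in the other direction. Granule cell markers had a median log2 difference of 0.001, with 10 of 20 positive, and markers of Bergmann glia and astrocytes 0.02, with 11 of 18 positive. Gfap, the astrocyte filament, averaged 175.2 ± 11.7 CPM in S776A double and 181.8 ± 23.7 CPM in SCA1 mice. Oligodendrocyte and myelin markers had a median of -0.11 and 16 of 18 were negative. Mbp, myelin basic protein, averaged 3365 ± 241 and 3824 ± 320 CPM (log2 -0.18, SE 0.07), and Mag, a myelin glycoprotein, 218.7 ± 17.2 and 249.3 ± 34.1 CPM (log2 -0.19, SE 0.09), both with overlapping ranges. Markers of microglia had a median of -0.04, of inhibitory interneurons 0.03, of unipolar brush cells 0.12, and of endothelial and mural cells -0.14. Of the 8 unipolar brush cell markers, 1 was higher and 2 lower at an unadjusted p under 0.05 (1.68% and 1.96% over all tested genes). Their mean log2 difference from WT was 0.07 in S776A double and 0.11 in SCA1 mice. In none of these lists did a member pass the thresholds. Sst, somatostatin, had the lowest p among interneuron markers, at 1.54 ± 0.321 and 2.22 ± 0.527 CPM (log2 -0.53, SE 0.18).

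Choroid plexus, an epithelium attached to the cerebellum that dissection removes to a varying degree, split the S776A double mice. The summed level of its 14 markers was 184.7, 178.8, 4933 and 4381 CPM in S776A double mice and 2946, 4475, 1498 and 7631 CPM in SCA1 mice. The first pair of S776A double mice lay far below all SCA1 mice, and the second pair lay within their range. WT mice of the same batch varied widely too, from 175.5 to 2994 CPM. The marker Clic6 lay at 16.8, 9.17, 45.4 and 42.95 CPM in these WT mice. In SCA1 S776A mice it lay at 11.7, 64.8, 54.7 and 47.7 CPM. All 14 markers had a negative log2 difference, with a median of -0.94, and none was at 0 in either group mean. Ttr, transthyretin, the main product of this epithelium, averaged 1321 ± 1528 and 2519 ± 1757 CPM, and without S776A double mice 1 and 2 its log2 difference was 0.06. In that fit, which leaves 2 S776A double mice, 6 Purkinje cell markers were higher at an unadjusted p under 0.05 and their median was 0.21. The part of choroid plexus RNA in the other results was not tested beyond this fit and the covariate.

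Immediate early genes, which neurons and glia switch on within minutes of activity or handling, were the other list on 1 side. Of 18 tested, all had a negative log2 difference, with a median of -0.30, and 4 were lower at an unadjusted p under 0.05 (1.96% over all tested genes). The mean log2 difference from WT over the list was 0.26, 0.15, 0.25 and -0.12 in S776A double mice and 0.52, 0.76, 0.21 and 0.41 in SCA1 mice, so that the groups overlapped. Junb averaged 11.8 ± 1.42 and 15.9 ± 3.33 CPM (log2 -0.43, SE 0.18), Fosb 0.958 ± 0.286 and 1.86 ± 1.34 CPM, and Atf3 1.24 ± 0.201 and 1.59 ± 0.13 CPM. Of the list only Jun did not overlap between the groups (70.1 ± 3.5 against 80 ± 3.44 CPM). Over all tested genes, 1.12% did not overlap with the S776A double mice below. The median of the list was also negative in other comparisons. It was -0.32 between SCA1 S776A and the same SCA1 mice, and -0.67 between WT S776A homozygous and WT mice.

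**Figure D3:**
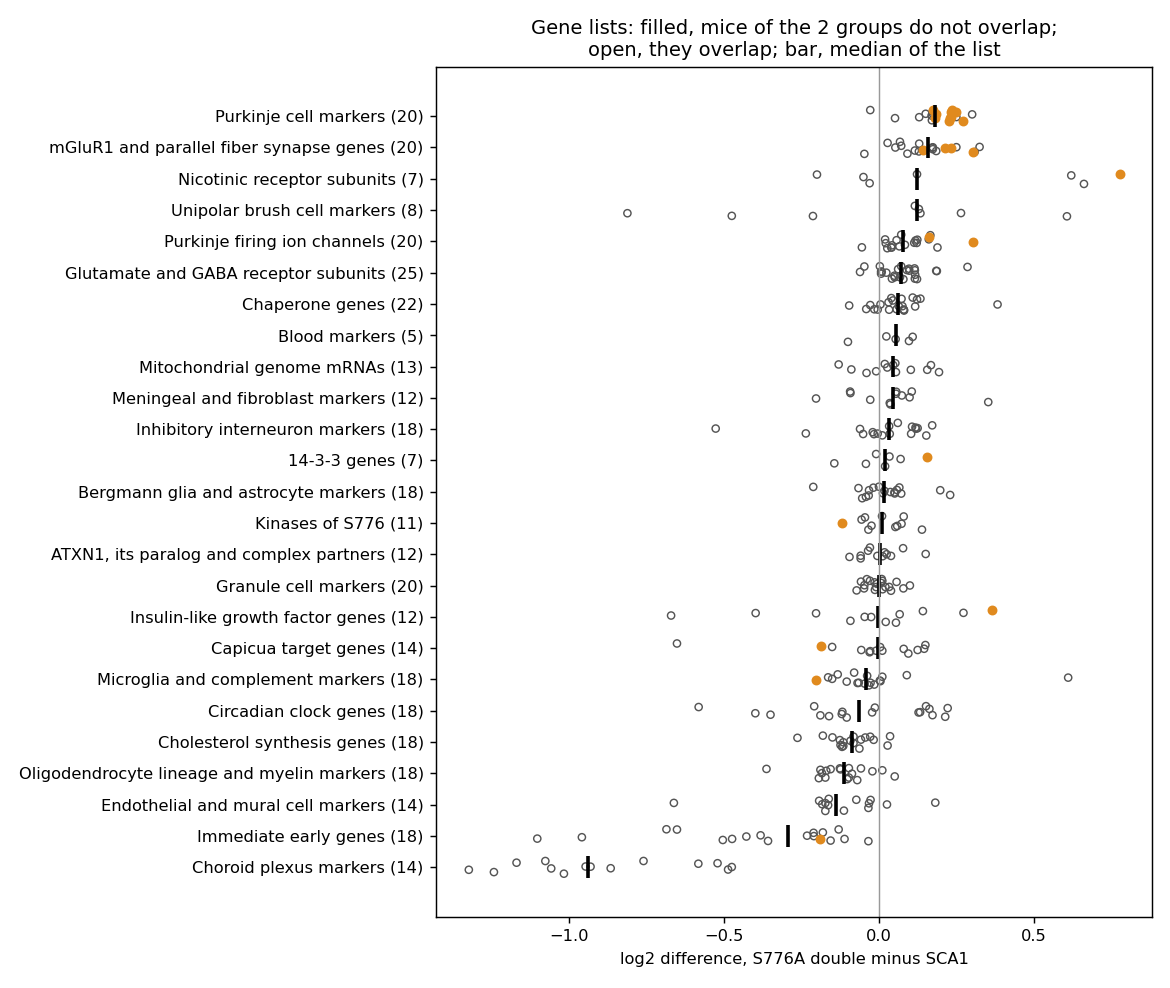
Log2 difference of S776A double minus SCA1 mice (horizontal axis) for the tested members of 25 gene lists (rows, number of members in parentheses), with filled points for genes whose 4 and 4 mice did not overlap, open points for those that did, and a bar at the median of each list. Purkinje cell and mGluR1 genes lay at medians of 0.18 and 0.16, and choroid plexus and immediate early genes at -0.94 and -0.30.

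Genes that differed between SCA1 S776A and WT mice were also followed, as lists chosen from a comparison of other mice. In that comparison 5 genes had an adjusted p under 0.05 and 10 under 0.1 in edgeR, so most listed genes were not shown to differ there. The choice also favours genes that still differed from WT mice with the substitution on the expanded allele. The lists therefore cannot show whether genes that respond to the expanded allele moved. The comparison behind the lists sets neither group compared here against another. Its fit, though, shared the gene filter, normalization and estimated spread of all 24 mice. The 100 genes lowered with the lowest p in SCA1 S776A against WT mice had 58 positive and 42 negative log2 differences between S776A double and SCA1 mice. Their median was 0.04, with 10 higher and 5 lower at an unadjusted p under 0.05, where 1.68% of all tested genes were higher and 1.96% lower. The 100 genes raised there had 37 positive and 63 negative differences and a median of -0.06, with 3 higher and 7 lower. With 50 genes a direction the medians were 0.13 and -0.07, and with 300 they were 0.01 and -0.03. Among the leading genes, Gm5083, a noncoding RNA that also lies within 5 Mb of the edited Atxn1 locus, lay at 12.6, 11.9, 12.9 and 13.6 CPM in S776A double mice and 9.85, 11.1, 11.7 and 11 CPM in SCA1 mice. The groups did not overlap, and both lay below the WT mean of 18.1 CPM. Myo15, an unconventional myosin, averaged 2.93 ± 0.489 and 2.36 ± 0.324 CPM with overlap, against 8.35 CPM in WT mice of the same batch. The synaptic vesicle gene Synpr averaged 115.3 ± 12 and 124.5 ± 14.5 CPM, against 74.5 CPM in those WT mice. WT levels of both genes differed between batches, and WT mice of the other batch averaged 2.215 CPM for Myo15 and 108.8 CPM for Synpr.

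The lists chosen in SCA1 against WT mice share the SCA1 mice, so their values are not independent of the choice and are only a description. Of the 100 lowered genes, 98 had a positive log2 difference, with a median of 0.22, where the SCA1 minus WT median was -0.57. Of the 100 raised genes, 93 had a negative difference, with a median of -0.16, where the SCA1 minus WT median was 0.42. Il20rb, a cytokine receptor subunit, averaged 44.1 ± 4.26 CPM in S776A double and 39.6 ± 4.05 CPM in SCA1 mice. It averaged 67 CPM in WT mice of the same batch and 42.7 CPM in WT mice of the other batch. Tpbg, a membrane glycoprotein, averaged 4.69 ± 0.771 and 6.11 ± 0.394 CPM without overlap, with a WT mean of 3.52 CPM. Rprm, a p53 target, averaged 3.37 ± 0.311 and 4.07 ± 0.171 CPM, also without overlap, with a WT mean of 2.22 CPM.

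The same substitution on both alleles was also compared without an expanded allele, in WT S776A homozygous against WT mice of the other batch, and the difference between the comparisons was tested as an interaction. No gene was called (0 of 22502, 0%), the lowest adjusted p was 0.862 in edgeR, and 1077 genes (4.79%) had an unadjusted p under 0.05. DESeq2 with a batch covariate called 0 genes, and after ComBat-seq it called 1, Gm43804. Across all 22502 genes, which are not independent of each other, the log2 differences of the comparisons had a Pearson r of 0.0641 and a Spearman rho of 0.0528, with no mouse in common. Among the 14966 genes with at least 1 CPM these were 0.223 and 0.106.

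Purkinje cell markers were positive for 19 of 20 between S776A double and SCA1 mice, and negative for 13 of 20, with a median of -0.14, between WT S776A homozygous and WT mice. The latter leaned on 1 library. The mean log2 difference from WT over the markers was -0.03, 0.04, -0.15 and -0.41 in the WT S776A homozygous mice, and without mouse 4 the median between the groups was -0.04, with 15 of 20 negative. The interaction was positive for 19 of 20, with a median of 0.31 against -0.02 over all genes, and 9 had an unadjusted p under 0.05 on the higher side (2.3% over all genes). Without WT S776A homozygous mouse 4, which had the highest share of multimapping fragments in the series (5.79%), the median of the interaction was 0.24 and the count 10, and without S776A double mice 1 and 2 they were 0.27 and 5. Homer3 had a log2 difference of 0.23 in the first comparison and -0.20 in the second (interaction 0.43, SE 0.14, unadjusted p = 0.005, adjusted p of at least 0.862 in edgeR, as for all genes), and Aldoc 0.23 and -0.07. Without WT S776A homozygous mouse 4 the second value was -0.08 for Homer3 and -0.04 for Aldoc. For Calb1 and Car8 both differences were positive, at 0.24 and 0.06 and at 0.25 and 0.05. For Gm15083 they were 1.11 and 0.17 (interaction 0.94, SE 0.23), and for Cep76 0.33 and -0.04 (interaction 0.37, SE 0.08).

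**Figure D4:**
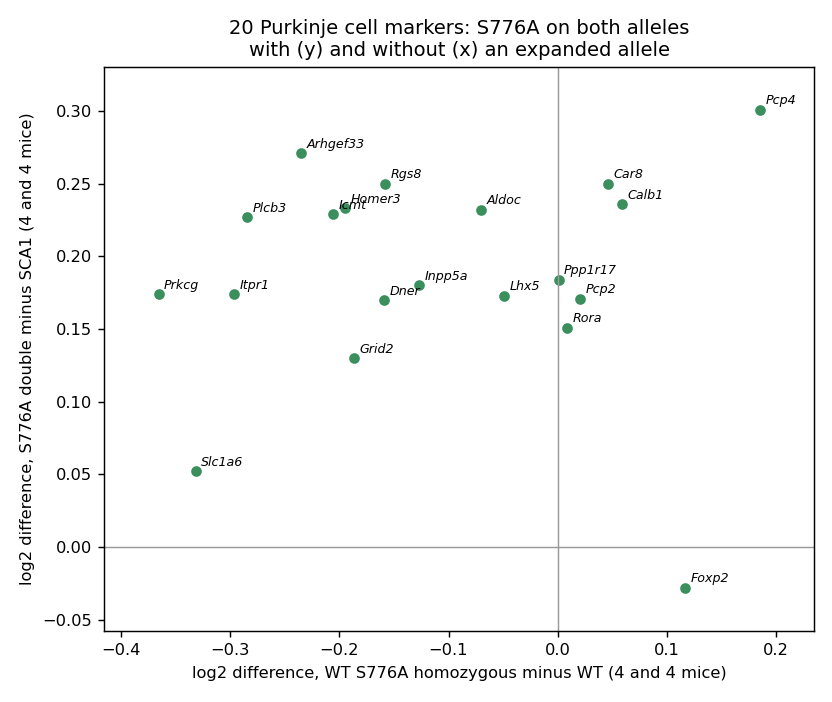
Log2 difference of each of 20 Purkinje cell markers between WT S776A homozygous and WT mice (horizontal axis, 4 and 4 mice of one batch) and between S776A double and SCA1 mice (vertical axis, 4 and 4 mice of the other batch), with 1 point a gene. On the vertical axis 19 markers lie above 0, and on the horizontal axis 13 lie below 0, with a median of -0.14 that is -0.04 without WT S776A homozygous mouse 4.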

How the data were processed

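The authors isolated total RNA from cerebella, used Trimmomatic 0.36 and STAR 2.7.2d (build GRCm38.p6, per the submitters' processing notes) and deposited whole-number counts of fragments per gene, without normalization or batch correction. The unstranded counts were used here, 62163600 to 88430180 per library on genes. Of 54232 gene identifiers, 54165 matched GENCODE M21. One further row that names no mouse gene, and STAR's summary rows, were left out, and some genes are not reported here. The sequencing batch was inferred by k-means (2 centres, 50 starts) on mapping shares. Counts were tested in R 4.3.3 with edgeR 4.0.16 (TMM, filterByExpr, robust quasi-likelihood, genotype and batch), and log2 CPM used a prior count of 2. DESeq2 1.42.0 and sva 3.50.0 (ComBat-seq) served for alternatives. The fits were tested on simulated counts with changes of 1 log2 unit, larger than most differences reported here. Smaller changes were not simulated. Within the S776A double and SCA1 groups, no pair of libraries agreed within counting error (chi-square over its degrees of freedom 12.2 to 65.6). The edgeR p-values judge a difference against a spread between mice that was estimated over all 24 mice, not within the 8 compared alone. Single values were compared by exact permutation tests. Named genes are Atxn1, Atxn1l, Cic, Calb1, Gfap, any called gene, the 12 lowest p a direction with at least 1 CPM, the 5 lowest p a direction in SCA1 S776A or SCA1 against WT mice, and up to 2 lowest p per list. Members and lists were chosen with earlier results of these data known.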

Additional observations from a re-analysis of the deposited data

Results flagged for a closer look

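In groups of 4 mice, 266 were examined for a mouse far from the others (Dixon's test), and 17 were found, where chance alone gives about 13.3. S776A double mouse 1 lay apart in sex-linked genes, with a log2 CPM of 9.70 for Xist and -3.76 for the Y-linked gene Uty, and a mean log2 difference from WT of -4.72 over the sex-linked list. The same mouse lay apart in brainstem and cerebellar nucleus markers (1.13), low-level genes in this tissue, and in Gm13944 (2.93) and Casq2 (5.30). SCA1 mouse 4 lay apart in log2 CPM of Ankrd44 (4.21), Gm47469 (1.15) and Cx3cr1 (3.64). It also lay apart in the share of fragments on mitochondrial genes (3.97%), and in the mean log2 difference from WT of endothelial and mural cell markers (0.18), glutamate and GABA receptor subunits (-0.24) and circadian clock genes (-0.44). The remaining ones were Ms4a6d in SCA1 mouse 1 (log2 CPM -1.42), Il20rb (5.07) and Gm35110 (-2.92) in SCA1 mouse 2, and Rps6ka4 in S776A double mouse 4 (4.61).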

How the results depend on the processing

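No paired analysis was possible because the labels give no replicate numbers shared between the groups. The count of genes called higher went from 0 to 1, Gm15083, in DESeq2 with a batch covariate, after ComBat-seq followed by DESeq2, with DESeq2 size factors in edgeR, with no filter on low counts and without WT S776A homozygous replicate 4. It was 1 at an adjusted p under 0.05 and 2 at an adjusted p under 0.1 without a fold limit. It stayed at 0 in each fit leaving out 1 SCA1 or S776A double mouse. The count was also 0 in the fit of only the 8 SCA1 and S776A double mice, where 0 genes had an adjusted p under 0.05. The interaction had 1 gene called after ComBat-seq. With 50 genes a direction, the median of the lowered reference genes was 0.13 in place of 0.04. Purkinje cell markers higher at an unadjusted p under 0.05 numbered 9, and 5 with choroid plexus RNA as a covariate, and 3 to 12 leaving out 1 mouse at a time, WT S776A homozygous replicate 4 included. Of 118 genes followed under every setting, the log2 difference changed sign 23 times. With Xist as a covariate these were Hba-a2 (0.082) and Uty (0.207), and with the choroid plexus covariate Hba-a2 (0.063), Cic (-0.025) and Slc1a6 (-0.001). Without S776A double mice 1 and 2 they were Hba-a2 (0.223), Uty (0.076), Atxn1 (-0.051) and Ttr (0.064). Leaving out 1 mouse at a time, Hba-a2 lay between -0.258 and 0.045, Hbb-bt between -0.11 and 0.281, Uty between -0.647 and 0.029, Cic between -0.03 and 0.13, Foxp2 between -0.108 and 0.037, Itpr1 between -0.013 and 0.279 and Gfap between -0.112 and 0.025. The choroid plexus covariate and the fits without 2 S776A double mice or without the WT S776A homozygous mouse were chosen after seeing the data. The cause was not tested. With 4 mice a group, low-level genes had wide intervals, and the sex and founder line of the mice are not in the labels. Batch and genotype cannot be told apart for WT S776A homozygous mice except through the WT mice of their batch.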

Other observations

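Lists not described above had no member past the thresholds between S776A double and SCA1 mice. Of 22 chaperone genes 17 had a positive log2 difference, with a median of 0.06, and the inducible Hsp70 gene Hspa1b averaged 5.47 ± 1.09 and 4.19 ± 0.42 CPM. Of 18 cholesterol synthesis genes 16 were negative, with a median of -0.09, and 0 had an unadjusted p under 0.05. Lss, lanosterol synthase, averaged 37.1 ± 3.58 and 41.1 ± 4.12 CPM. Of 18 circadian clock genes 11 were negative, with a median of -0.06, and the clock output gene Dbp spread from 33.4 to 82.3 CPM in S776A double and from 36.1 to 104.7 CPM in SCA1 mice. The 13 mRNAs of the mitochondrial genome had a median of 0.05, the 12 insulin-like growth factor genes -0.002, the 12 meningeal and fibroblast markers 0.05, and the 5 blood markers 0.05. The 12 tested brainstem and cerebellar nucleus markers had a median of -0.11. Hoxa5 lay at 0.164, 0.0131, 0.0263 and 0.0128 CPM in S776A double mice and at 0.306, 0.132, 1.17 and 0.0401 CPM in SCA1 mice. These ranges overlap, and 3 of the S776A double values rest on few counts, so no fold is given.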
